A study of Mus musculus with 17 samples.

Results

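The regions described here are stretches of the mouse genome where acetylation of histone H3 at lysine 27 (H3K27ac) was called in wild-type CD4 and in wild-type CD8 thymocytes but not in CD8 thymocytes lacking Tcf1 and Lef1. They were chosen by these measured islands, by merging the called intervals, or islands, of the 3 thymic H3K27ac libraries wherever these shared at least 1 bp. Of 79486 merged regions, 1255 had an island in both wild types and none in the deficient cells. Of the 11140 regions with islands in both wild types, they made up 11.3%. This share follows from the rule that chose the regions and is no finding. Absence here means no called island: reads below the calling threshold are not in the island lists, so no fold change against the deficient cells is given at any of the 1255 regions.

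The deficient group, called DKO CD8, was sorted from mice that had lost Tcf1 and Lef1 (Tcf1-/-Lef1-/-) through CD4-Cre. The wild-type groups were CD4 thymocytes (WT CD4) and CD8 thymocytes (WT CD8). The label for both CD8 groups gives mature cells high in TCRβ and negative for CD69 and CD24. The WT CD4 samples carry the same phenotype label, which names CD8, and were assigned by their titles. Tcf1 binding came from another tissue, splenic CD8 T cells of wild-type mice, with splenic cells of Tcf1-deficient mice (deleted by CD4-Cre) as the control of the peak list. Each group had 1 library per mark, so there is no replicate check, no test and no p-value, and every 95% interval (exact Clopper-Pearson for shares, exact Poisson for reads) covers counting error only. The labels give no ages, and the deletion was not checked at the genes themselves, since no gene annotation of the files' build (mm9) was at hand; the regions are therefore named by position alone.

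H3K27ac marks active promoters and enhancers, and is written by the acetyltransferases p300 and CBP. H3K9ac also accompanies active promoters and enhancers, H3K4me3 is typical of promoters, and H3K27me3 is laid down by Polycomb proteins at silenced chromatin. Tcf1 and Lef1 are related DNA-binding proteins of the HMG-box family that act throughout T cell development and take part in the choice and upkeep of the CD8 lineage. CD4-Cre acts from the stage at which thymocytes carry both CD4 and CD8, before the lineages part, so that mature CD8 cells form without either factor.

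The H3K27ac islands held 1959297 reads in DKO CD8, 2505720 in WT CD4 and 2056894 in WT CD8. The lists were unlike in makeup: 29636 islands with a median of 34 reads in DKO CD8, 24476 with a median of 59 in WT CD4, and 56985 with a median of 24 in WT CD8. The WT CD8 H3K27ac list also overlapped the WT CD8 H3K27me3 list widely. A WT CD8 H3K27me3 island was present at 34.3% of the 1255 regions, at 6.42% of the 9885 regions called in all 3 groups, and at 40.6% of the 43387 regions called in WT CD8 alone. Whether this overlap bears on the choice of the 1255 regions was not tested; the values without the regions that carry it, a choice made after the data had been seen, are given beside the results on each mark and on Tcf1.

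Most of the regions were weak, and at the median they were somewhat narrower than regions called in all 3 groups. Reads in WT CD4 islands ranged from 15 to 2807 with a median of 38, against a median of 131 at regions called in all 3 groups. Reads in WT CD8 islands ranged from 10 to 1847 with a median of 22, against 33 at regions called in all 3 groups. The median width was 2600 bp, against 3000 bp. The WT CD4 and WT CD8 islands overlapped by at least 200 bp in every region, by 1000 bp at the median, and 1169 of the 1255 regions had an overlap of at least 50% of the smaller one. Only 60 regions had at least 50 reads in each wild type. Together the regions spanned 3.56 Mb.

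**Figure D1:**
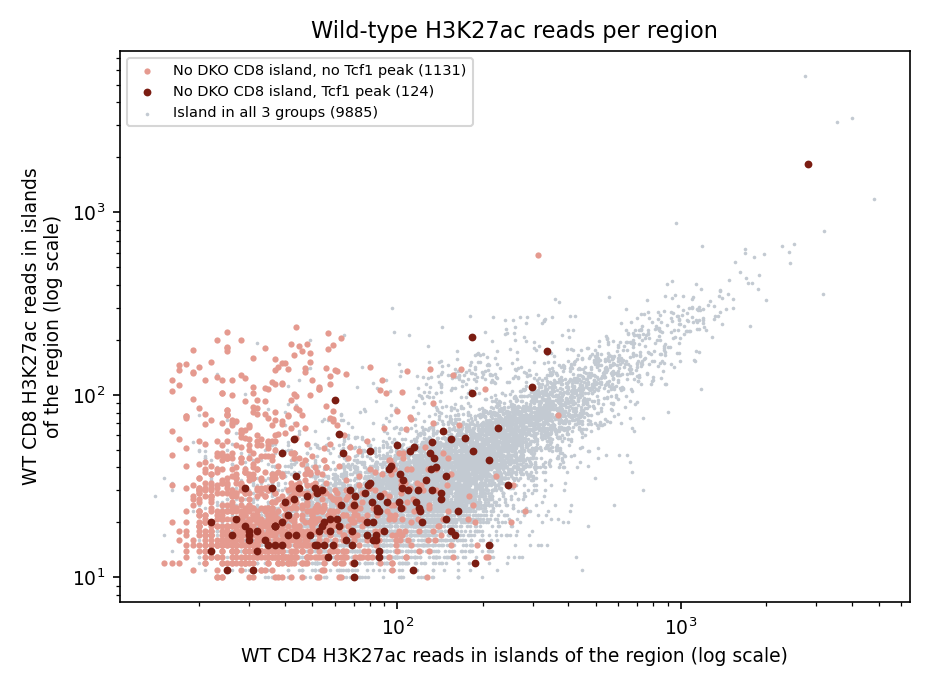
Each point is 1 merged H3K27ac region, placed by its reads in WT CD4 islands (x axis) and WT CD8 islands (y axis), both on log scales. The 1255 regions without a DKO CD8 island (light red, or dark red for the 124 holding a Tcf1 peak) lie mostly at the lower left of the 9885 regions called in all 3 groups (grey), with a spread towards high WT CD8 reads at low WT CD4 reads.

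Relative to regions called in all 3 groups, the balance between the wild types leaned to WT CD8. The median log2 ratio of WT CD4 over WT CD8 reads was -1.10 once centred on those regions, and 1096 of the 1255 ratios were below 0. The sign turned with the scaling, as the median was 0.56 with each library's sum of island reads as the divisor. Without any scaling, 301 regions (24.0%) had fewer reads in WT CD4 (median 28) than in WT CD8 (median 56), a division made after the values had been seen. Among these 301 regions, 72.4% (95% interval 67.0 to 77.4) had a WT CD8 H3K27me3 island, against 22.2% (19.6 to 24.996) of the other 954. A Tcf1 peak lay in 1.66% of the 301 (0.542 to 3.83) and in 12.5% of the 954 (10.4 to 14.7). The 301 regions thus differed from the rest in calls of H3K27me3 and Tcf1, but also in the H3K27ac reads that divided them. The other 954 had medians of 43 WT CD4 and 19 WT CD8 reads. A WT CD8 H3K27me3 island was also common at regions called in WT CD8 alone (40.6%). Regions called in all 3 groups were not divided likewise. Whether the 2 differences go beyond H3K27ac strength and the overlap of the WT CD8 lists was therefore not tested.

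The wild-type reads were next set on the DKO CD8 scale, since a region can only be called where its reads reach the caller's floor. Scaled by the median DKO CD8 over wild-type ratio at regions of all 3 groups (0.766 for WT CD4 and 2.89 for WT CD8), reads of both wild types were at or above the lowest DKO CD8 island of the same width class at 1094 regions (87.2%). In regions of up to 5 kb the WT CD8 reads could not fall short. Their lowest scaled value was 28.9, and the lowest DKO CD8 islands there held at most 27 reads. The count thus rested mainly on WT CD4, whose reads alone reached the level at 1102 regions. These reads were also used by the rule. Against the median DKO CD8 island of the same width class, a stricter level added after the data had been seen, both wild types reached it at 157 regions (12.5%). With totals of island reads as the scale, 616 regions (49.1%) reached the lowest level. The DKO CD8 islands more than 5 kb wide held at least 47 reads and a median of 228, and those of up to 1 kb at least 11 and a median of 19. A minority of the regions therefore had the wild-type strength of a typical DKO CD8 island. The share of both-wild-type regions that lacked a DKO CD8 island was 63.9% below 30 WT CD4 reads, 34.8% at 30 to under 60, 6.57% at 60 to under 120 and 1.33% at 120 or more; these are values of the rule itself.

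Distance to DKO CD8 acetylation varied widely. The nearest DKO CD8 H3K27ac island lay less than 1 kb away from 65 regions (5.18%), less than 5 kb from 334 (26.6%) and less than 20 kb from 722 (57.5%), with a median of 14400 bp. At 183 regions it lay 100 kb away or more, and 2 regions on chromosome Y had no DKO CD8 island on their chromosome. At the edge of the rule, the regions on chromosome 10, 80708801 to 80712400 (132 WT CD4 and 55 WT CD8 reads), and on chromosome 6, 99120201 to 99124200 (145 and 21 reads in the same order), abutted a DKO CD8 island without sharing a base. Just outside it, chromosome 7, 29726601 to 29732600, had 40 DKO CD8, 70 WT CD4 and 29 WT CD8 reads with a shared stretch of 200 bp, and chromosome 7, 51839801 to 51845200, had 45, 33 and 18 reads in that order with another 200 bp. The farthest were weak: chromosome 12, 49658801 to 49661000 (28 WT CD4 and 45 WT CD8 reads), and chromosome 2, 97678201 to 97679400 (20 and 29 reads), lay 2229.2 and 2208.8 kb from any DKO CD8 island in that order, and both had a WT CD8 H3K27me3 island.

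**Figure D2:**
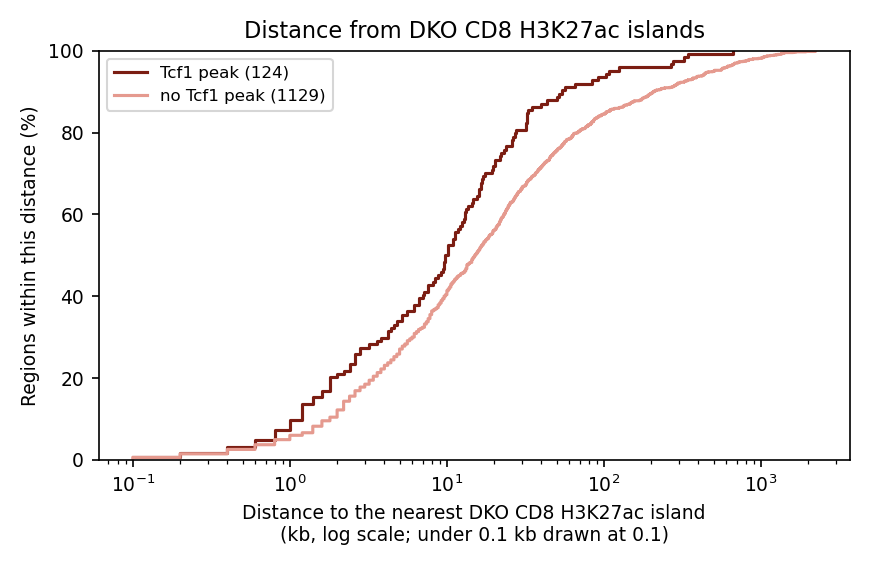
Share of regions (y axis, %) lying within a given distance of the nearest DKO CD8 H3K27ac island (x axis, kb, log scale), for the 124 regions with a Tcf1 peak (dark red) and the 1129 without one that had a DKO CD8 island on their chromosome (light red). The median was 10000 bp with a peak and 15200 bp without.

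H3K9ac, which comes from libraries the rule did not use, was called at 1.51% of the 1255 regions in DKO CD8, at 26.1% in WT CD4 and at 5.10% in WT CD8. At regions with H3K27ac in all 3 groups these shares were 41.3%, 73.8% and 37.1%. The H3K9ac lists differed in length, with 6516 islands in DKO CD8, 32651 in WT CD4 and 9860 in WT CD8. The regions carried little H3K9ac in DKO CD8, and less of it in the wild types too. Of the 27 regions with H3K9ac islands in both wild types, 26 had none in DKO CD8 (96.3%, 81.0 to 99.9). Of all H3K9ac regions called in both wild types, 39.0% had none in DKO CD8, and of those at H3K27ac regions of all 3 groups 25.7% (24.3 to 27.2). Without regions carrying WT CD8 H3K27me3 it was 10 of 11 (90.9%, 58.7 to 99.8), against 24.7% at regions of all 3 groups (23.2 to 26.2). In regions with H3K27ac in both CD8 groups and not in WT CD4, H3K9ac of both wild types lacked a DKO CD8 island at 17 of 21 (81.0%, 58.1 to 94.6). That interval overlaps the one of the 27 regions. Where only a WT CD8 H3K27ac island was lacking, the share was 71.1% (66.3 to 75.5), with intervals apart. The WT CD8 H3K9ac list was short, so the count was repeated on WT CD4 islands alone: 315 of 328 had no DKO CD8 island (96.0%, 93.3 to 97.9), against 85.9% of all WT CD4 H3K9ac regions and 45.8% of those at H3K27ac regions of all 3 groups (44.7 to 47.0). Regions of both CD8 groups without WT CD4 gave 91.0% (85.3 to 94.97), an interval that meets that of the 1255 regions, and regions lacking only a WT CD8 island gave 83.8% (82.3 to 85.2), which does not.

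The difference in H3K9ac from regions of all 3 groups was examined within bands of WT CD4 H3K27ac reads, set after the data had been seen. The top band has no upper limit, and its median WT CD8 H3K27ac reads were 32 without a DKO CD8 island and 47 in regions of all 3 groups, so strength was matched only in part. Among regions of 120 reads or more, 26 of 27 WT CD4 H3K9ac islands had no DKO CD8 counterpart (96.3%, 81.0 to 99.9), against 32.3% at regions of all 3 groups (30.9 to 33.7). At 60 to under 120 reads the shares were 95.1% (86.3 to 99.0) and 64.6% (62.5 to 66.6), and at 30 to under 60 reads 96.6% (92.2 to 98.9) and 87.4% (84.2 to 90.3). Below 30 reads they were 95.7% (89.5 to 98.8) and 82.3% (70.5 to 90.8), where the intervals overlap. The H3K9ac islands themselves were unequal in strength in the upper bands, with a median of 20 WT CD4 H3K9ac reads at the 27 regions and 61 at their counterparts in all 3 groups. The part this plays was not tested.

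**Figure D3:**
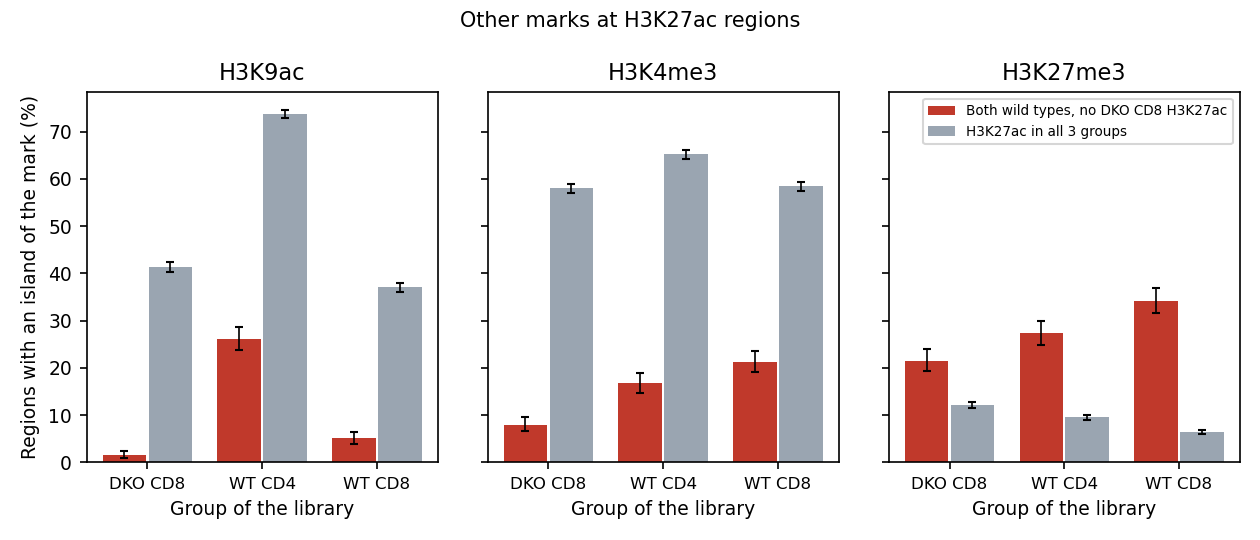
Share of H3K27ac regions (y axis, %) that overlapped an island of H3K9ac, H3K4me3 or H3K27me3, by the group of the library (x axis), for the 1255 regions of both wild types without DKO CD8 (red) and the 9885 regions of all 3 groups (grey); bars are exact 95% intervals. H3K9ac and H3K4me3 were called less often at the red regions in each group, and H3K27me3 more often.

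H3K4me3 was called at 7.97% of the regions in DKO CD8, at 16.8% in WT CD4 and at 21.3% in WT CD8, against 58.0%, 65.2% and 58.4% at regions of all 3 groups. Most of the 1255 regions (824) had no H3K4me3 island in any group. Of the 80 with H3K4me3 in both wild types, 55 had none in DKO CD8 (68.8%, 57.4 to 78.7). The corresponding share was 25.6% of all H3K4me3 regions called in both wild types and 10.5% of those at H3K27ac regions of all 3 groups (9.67 to 11.3). Without regions carrying WT CD8 H3K27me3 it was 20 of 30 (66.7%, 47.2 to 82.7), against 10.05% at regions of all 3 groups (9.24 to 10.9). On WT CD4 islands alone it was 173 of 211 (82.0%, 76.1 to 86.9), against 73.4% of all WT CD4 H3K4me3 regions and 16.8% of those at H3K27ac regions of all 3 groups (15.9 to 17.7). Regions of both CD8 groups without WT CD4 gave 65.2% (55.6 to 73.9), and regions lacking only a WT CD8 island gave 44.1% (42.1 to 46.1). At 30 to under 60 WT CD4 H3K27ac reads, 83.8% of WT CD4 H3K4me3 islands at the regions had no DKO CD8 counterpart (75.8 to 89.9), against 38.9% at regions of all 3 groups (34.7 to 43.2). At 60 to under 120 reads the values were 68.6% (50.7 to 83.1) and 22.2% (20.5 to 24.1). Below 30 reads they were 84.9% (72.4 to 93.3) and 55.0% (43.5 to 66.2). At 120 reads or more they were 6 of 6 (54.1 to 100) and 10.1% (9.14 to 11.1). The WT CD4 H3K4me3 islands were weaker at the regions, with medians of 19, 22, 27 and 18.5 reads from the lowest band up. Those at regions of all 3 groups had 24, 31, 41 and 62, and the part this plays was not tested. A DKO CD8 island without one in either wild type was found at 33 of 857 regions (3.85%, 2.67 to 5.37), close to the 3.91% over all H3K27ac regions; for H3K9ac it was 6 of 890 (0.674%, 0.248 to 1.46, against 1.07%).

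The silencing mark H3K27me3 was called at 21.5% of the regions in DKO CD8 (19.3 to 23.9), at 27.3% in WT CD4 (24.9 to 29.9) and at 34.3% in WT CD8 (31.6 to 37.0). These shares were above those at regions of all 3 groups (12.1%, 9.51% and 6.42%). In regions called in both CD8 groups without WT CD4 the DKO CD8 share was higher still, at 30.9% (28.1 to 33.9), beside 26.7% in WT CD4 and 36.5% in WT CD8. Without the regions with WT CD8 H3K27me3 the DKO CD8 share was 72 of 825 (8.73%, 6.89 to 10.9), against 8.67% (8.10 to 9.26) of regions of all 3 groups treated likewise. Leaving them out was bound to lower the share, since 198 of these 430 regions also had the mark in DKO CD8. The drop therefore does not show that the share depends on the WT CD8 list. By the shares of each group, the mark was called in the wild types, where H3K27ac was also called, and not chiefly in DKO CD8. In 175 regions all 3 groups had it. Of the 724 regions without H3K27me3 in either wild type, 30 had an island in DKO CD8 (4.14%, 2.81 to 5.86), against 3.42% of all such H3K27ac regions and 5.62% of those of all 3 groups (5.15 to 6.13), so the share was near the background. Those 30 islands held from 30 to 1228 reads with a median of 58.5, and 5 of the 30 regions had a Tcf1 peak. Of the 242 regions with H3K27me3 in both wild types, 67 had none in DKO CD8 (27.7%, 22.1 to 33.8), against 23.3% of all H3K27me3 regions of both wild types and 10.9% of those at H3K27ac regions of all 3 groups (7.997 to 14.5). In regions of both CD8 groups without WT CD4 the share was 8.33% (4.84 to 13.2). Of the 343 with WT CD4 H3K27me3, 126 had none in DKO CD8 (36.7%, 31.6 to 42.1), against 60.1% of all WT CD4 H3K27me3 regions and 30.3% of those at H3K27ac regions of all 3 groups (27.4 to 33.4).

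Sorted by the marks of the wild types, the regions fell into 4 classes, set after the values had been seen. H3K27me3 in at least 1 wild type marked 531 regions (42.3%), H3K4me3 without H3K27me3 marked 120 (9.56%), H3K9ac without either marked 97 (7.73%), and 507 (40.4%) had none of these marks in a wild type. At regions of all 3 groups the same classes held 12.05%, 60.7%, 10.3% and 17.0%. The 507 regions with H3K27ac as their only wild-type mark had a median of 44 WT CD4 and 19 WT CD8 reads and lay 9000 bp from the nearest DKO CD8 H3K27ac island at the median. The 531 regions with H3K27me3 had medians of 33 WT CD4 and 29 WT CD8 reads and a median distance of 25200 bp. Among the 74 regions with at least 120 WT CD4 reads, 8 were of the H3K27me3 class and 35 of the class with H3K27ac alone. Among the 60 regions with at least 50 reads in each wild type, by contrast, 34 were of the H3K27me3 class.

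Tcf1 peaks of splenic CD8 cells lay in 124 of the 1255 regions (9.88%, 8.29 to 11.7). This was below the 36.8% of all regions of both wild types and the 40.2% of regions of all 3 groups (39.3 to 41.2), and above the 7.30% of all merged H3K27ac regions. It was also above regions of both CD8 groups without WT CD4 (2.78%, 1.85 to 3.99) and below regions lacking only a WT CD8 island (17.2%, 16.2 to 18.1). Without the regions that carried WT CD8 H3K27me3, 114 of 825 held a peak (13.8%, 11.5 to 16.4), against 41.1% at regions of all 3 groups (40.1 to 42.1). With at least 50 reads in each wild type, 14 of 60 did (23.3%, 13.4 to 36.0), against 59.2% (57.3 to 61.1). With islands of at least their list's median reads in all 3 lists, 105 of 289 did (36.3%, 30.8 to 42.2), against 48.2% (46.9 to 49.4), but 142 of these 289 regions held a weaker DKO CD8 island. A peak lay in 55 of those 142 and in 50 of the 147 without any DKO CD8 island. By class, peaks lay in 15.2% of regions without another wild-type mark (12.2 to 18.6), in 13.4% of the H3K9ac class (7.33 to 21.8), in 9.17% of the H3K4me3 class (4.67 to 15.8) and in 4.33% of the H3K27me3 class (2.77 to 6.43). At regions of all 3 groups the shares were 32.5% without another mark (30.2 to 34.8), 45.8% in the H3K9ac class (42.7 to 48.9), 43.5% in the H3K4me3 class (42.2 to 44.7) and 30.1% in the H3K27me3 class (27.5 to 32.8).

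The share with a Tcf1 peak was larger in bands of higher WT CD4 H3K27ac reads. Below 30 WT CD4 reads, 7 of 366 regions held a peak (1.91%, 0.772 to 3.90), against 7.73% (4.48 to 12.2) at regions of all 3 groups. At 30 to under 60 reads it was 39 of 599 (6.51%, 4.67 to 8.79), against 16.2% (14.1 to 18.5). At 60 to under 120 reads it was 48 of 216 (22.2%, 16.9 to 28.4), against 30.7% (29.0 to 32.3). At 120 reads or more it was 30 of 74 (40.5%, 29.3 to 52.6), against 51.7% (50.4 to 53.0), where the intervals overlap. The observed share was thus lower without a DKO CD8 island in each of the 4 bands, with intervals apart in the lower 3. Within the upper 2 bands they were also wider, with medians of 3600 and 4600 bp, against 2400 and 3800 bp.

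**Figure D4:**
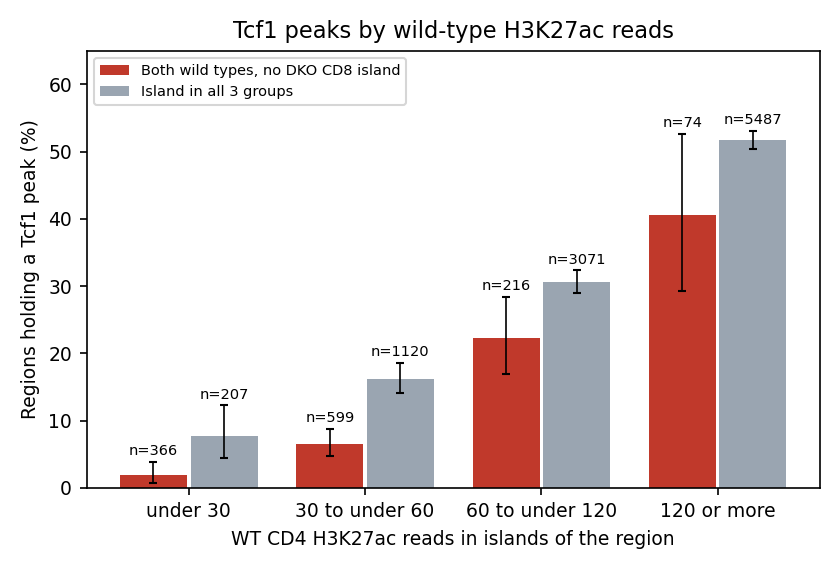
Share of H3K27ac regions holding a splenic CD8 Tcf1 peak (y axis, %) in bands of WT CD4 H3K27ac reads (x axis), for regions of both wild types without DKO CD8 (red) and regions of all 3 groups (grey), with the number of regions above each bar and exact 95% intervals. Both sets rise from left to right, to 40.5% and 51.7% in the highest band.

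Where a region did hold a peak, its score tended to be somewhat higher than at regions of all 3 groups, with overlapping ranges. The authors' score of the highest peak per region had a median of 99.05 (quartiles 72.3 and 160) at the 124 regions, against 84.1 (63.9 and 121) at regions of all 3 groups holding a peak. Regions with a peak had a median of 78 WT CD4 reads and 24 WT CD8 reads, and those without a peak 36 and 21 in the same order. H3K27me3 islands of WT CD8 overlapped 8.06% of the regions with a peak and 37.1% of those without, while DKO CD8 H3K27me3 islands overlapped 14.5% and 22.3%. WT CD4 H3K9ac islands overlapped 16.9% of the regions with a peak and 27.1% of those without.

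The 4 regions with the highest Tcf1 scores outside chromosome 18 are given with their peaks. On chromosome 2, 17591001 to 17594400, the peak from 17593163 to 17593707 scored 453, with 78 WT CD4 and 17 WT CD8 reads of H3K27ac. On chromosome 1, 137703201 to 137705000, the peak from 137704136 to 137704755 scored 450, with 55 WT CD4 and 20 WT CD8 reads. On chromosome 16, 30767801 to 30769800, the peak from 30769192 to 30769916 scored 416, with 64 WT CD4 and 48 WT CD8 reads. In these 3 regions no other mark was called in any group, and the nearest DKO CD8 H3K27ac islands were 56.6, 9.8 and 54.4 kb away in that order. Each had wild-type reads that exceeded the lowest DKO CD8 island of its width class when scaled by the median ratio at regions of all 3 groups. Unscaled, the 17 WT CD8 reads on chromosome 2 were below that lowest value, 27. The regions on chromosomes 1 and 16 stayed above theirs, 15, in both wild types.

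The 4th, chromosome 12, 29517001 to 29523000, was strong in both measures. It had 299 WT CD4 reads (266 to 335) and 111 WT CD8 reads (91.3 to 134). On the DKO CD8 scale these were 229 and 320 reads, against a lowest value of 47 and a median of 228 among DKO CD8 islands of its width class. Its 2 Tcf1 peaks, from 29519123 to 29519806 and from 29520613 to 29520941, scored 405 and 85.3. The only other mark was a WT CD4 H3K9ac island of 16 reads, and the nearest DKO CD8 H3K27ac island lay 8.4 kb away. A WT CD4 H3K27ac island of 146 reads began 5 kb after its centre and ended at 13.8 kb, and covered a DKO CD8 island of 22 reads, so that DKO CD8 acetylation was called next to the region but not in it. Further Tcf1 peaks lay on both sides, for 6 in all within 40 kb.

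The region on chromosome 3, 83592401 to 83596600, was the strongest outside chromosome 18 with all active marks in both wild types and none of them in DKO CD8. Its H3K27ac reads were 226 in WT CD4 (197 to 257) and 66 in WT CD8 (51.0 to 84.0). H3K9ac held 55 WT CD4 and 25 WT CD8 reads, and H3K4me3 held 45 WT CD4 and 31 WT CD8 reads, with no DKO CD8 island of either. H3K27me3 showed the opposite pattern, with an island of 49 reads in DKO CD8 and none in WT CD4 or WT CD8. A Tcf1 peak from 83595507 to 83595787 scored 82.4. Calls of all 4 marks differed between DKO CD8 and both wild types here, but the region was named by rules that used these calls. Its DKO CD8 H3K27me3 island was no stronger than most, as the median DKO CD8 H3K27me3 island held 52 reads. The DKO CD8 H3K27me3 island covered the same side of the region as the wild-type H3K9ac and H3K4me3 islands, from 1.9 to 0.3 kb before the centre, while the Tcf1 peak lay about 1 kb after it.

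**Figure D5:**
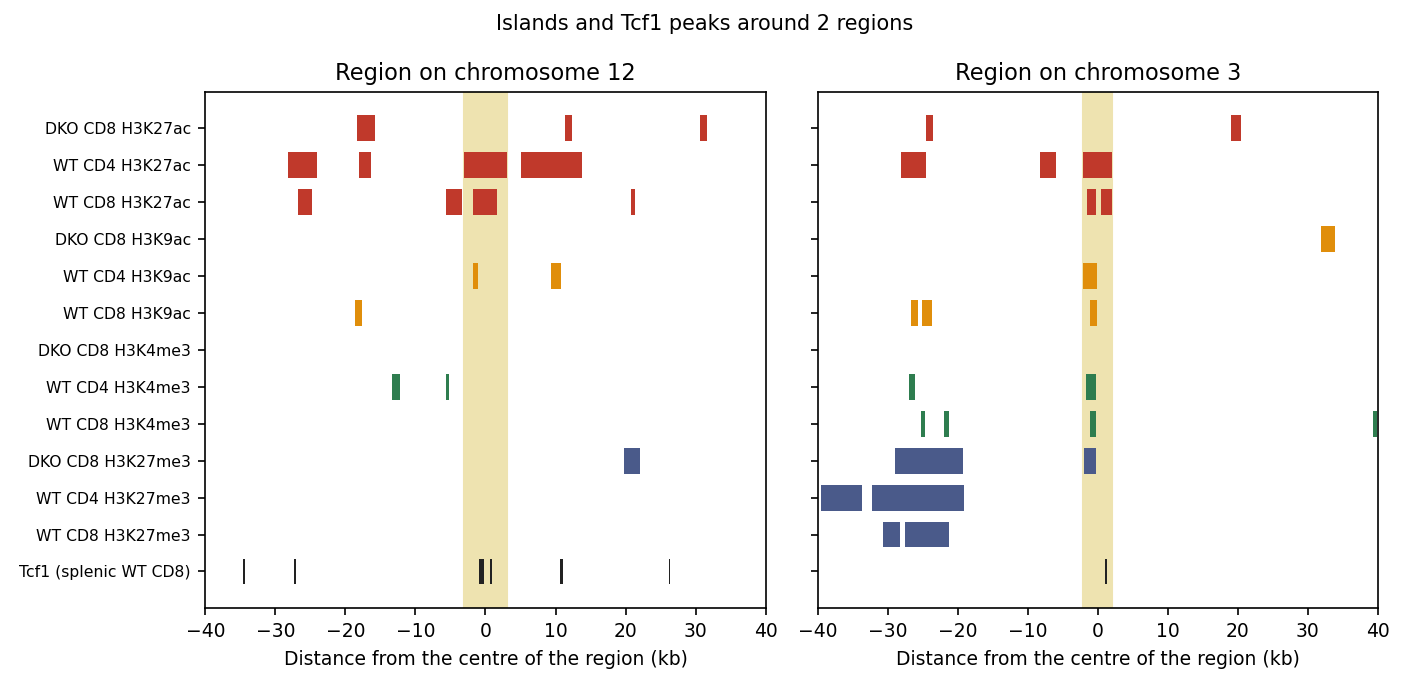
Islands of the 12 histone libraries and Tcf1 peaks (rows) within 40 kb of the centre of the regions on chromosome 12 and chromosome 3 (x axis, kb; shading marks the region itself). In both panels the DKO CD8 H3K27ac row is empty inside the shading, and on chromosome 3 only the DKO CD8 row has an H3K27me3 island there.

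Other regions of high support, meaning high in whichever wild type was the lower of the pair, were less uniform. Chromosome X, 166421201 to 166447000, was far above all others, with 2807 WT CD4 and 1847 WT CD8 reads over 25.8 kb. It also had a WT CD8 H3K4me3 island of 1403 reads that neither other group had, a Tcf1 peak scoring 115, and no DKO CD8 island of any mark. The next DKO CD8 H3K27ac island was 661.8 kb away. The 95th percentiles over the 1255 regions were 129 WT CD4 and 114 WT CD8 reads, so this region is not typical of them. The sex of the mice was not compared between the groups, and why this region stands out was not tested. Chromosome 8, 125685401 to 125696400, had 337 WT CD4 and 173 WT CD8 reads and a Tcf1 peak scoring 113. It had H3K9ac islands of 44 DKO CD8 reads and 134 WT CD4 reads, and no WT CD8 one. Only WT CD8 had H3K4me3 and H3K27me3 islands there, of 160 and 150 reads in that order. Chromosome 9, 95213001 to 95218200, had 184 WT CD4 and 49 WT CD8 reads and Tcf1 peaks scoring 126 and 57.2, with no other mark in any group.

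Chromosome 16, 52058801 to 52067200, had 368 WT CD4 and 78 WT CD8 reads and lay only 0.6 kb from a DKO CD8 H3K27ac island. Chromosome 19, 24986001 to 24994000, had 203 WT CD4 and 108 WT CD8 reads of H3K27ac, and 208 and 16 reads of H3K9ac in the same order. It also carried a WT CD8 H3K27me3 island of 401 reads. Chromosome 4, 154214801 to 154226800, went the other way between the wild types, with 314 WT CD4 and 583 WT CD8 reads, and had H3K27me3 islands of 895 reads in DKO CD8, 1067 in WT CD4 and 804 in WT CD8. Chromosome 6, 3132401 to 3144000, was named for being among those with the most WT CD8 reads (44 WT CD4 and 235 WT CD8), not for its support. It had islands in 10 of the 12 histone libraries, with H3K27me3 in each group. The regions on chromosomes 19, 4 and 6 show that high reads in at least 1 wild type did not single out places of active marks alone.

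Further regions without DKO CD8 islands of a second active mark were weaker. For H3K9ac these were chromosome 7, 52936401 to 52940800 (18 WT CD4 and 13 WT CD8 H3K9ac reads), and chromosome 4, 88408801 to 88410800 (30 and 44), which kept H3K4me3 in all 3 groups with 36 reads in DKO CD8, 40 in WT CD4 and 35 in WT CD8. For H3K4me3 they were chromosome 14, 45607201 to 45610600 (21 WT CD4 and 25 WT CD8 H3K4me3 reads), and chromosome 12, 17884601 to 17889800 (61 and 34), which had a DKO CD8 H3K9ac island of 25 reads. Chromosome 2, 156942801 to 156949000, joined a DKO CD8 H3K27me3 island of 30 reads, with none in either wild type, to 210 WT CD4 and 44 WT CD8 reads of H3K27ac and Tcf1 peaks scoring 279 and 184.

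Most of the regions, 1173, had no other of their kind close by. Chains were formed by 82 (6.53%), in which neighbours lay less than 20 kb apart with no DKO CD8 H3K27ac island between them: 36 pairs, 2 chains of 3 and 1 of 4, the last on chromosome 18. On chromosome 15, a chain of 3 from 80926801 to 80958600 had 338 WT CD4 and 76 WT CD8 reads in all, and Tcf1 peaks scoring 115 and 75.6 in the first 2 of its regions. No other mark was called there in any group. On chromosome 5, a chain of 3 from 77551201 to 77564800 had 211 WT CD4 and 93 WT CD8 reads, and a Tcf1 peak scoring 53.1 in 1 region. On chromosome 16, the region from 52058801 to 52067200 named above formed a pair with its neighbour from 52082001 to 52085200. It was the pair with the most WT CD4 reads outside chromosome 18, with 422 WT CD4 and 115 WT CD8 reads together and no Tcf1 peak.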

How the data were processed

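SICER 1.1, MACS 1.4.2, Bowtie2 2.2.5, FastQC and mm9 are named in the submitters' processing notes without roles. The deposited island lists give a whole-number read count per island and library, not normalized. No library totals are at hand; depth is therefore stated as reads within islands, which moves with how much was called. Peaks of the deposited Tcf1 file carry a score by the authors, used only to rank and describe them. Per the labels, several samples were sequenced again, without saying which. Of 17 samples, 12 histone lists and 1 peak list were used; the inputs and the Tcf1-deficient control were not analysed here on their own.

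Islands of the 3 H3K27ac lists were merged at an overlap of 1 bp or more, and other marks and peaks were assigned likewise. The merged number and the number of regions with a peak equalled those of bedtools 2.31.1, and the steps were tested on simulated data. A region's reads are the sum over a library's islands in it. Width classes end at 1, 2, 3 and 5 kb. Named regions are those of highest support (the lower wild-type count after division by that library's median at regions of all 3 groups), of most reads, with H3K9ac or H3K4me3 in both wild types and none in DKO CD8, with DKO CD8 H3K27me3, of highest Tcf1 score, in the largest chains, and nearest to or farthest from DKO CD8 islands; chromosome 18 was left out of naming. The regions and rules were chosen with earlier results of these data known. Planned gene names and gene lists were not run, for want of an mm9 annotation. Coordinates are mm9, counted from 1. Intervals, overlaps and plots came from SciPy 1.17.1, pandas 2.3.3, matplotlib 3.10.9 and numpy 2.4.6 under Python 3.11.15.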

Additional observations from a re-analysis of the deposited data

How the results depend on the processing

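No paired analysis was possible because each group had 1 library per mark. Of 59 alternatives, 34 left their value within its 95% interval (within 1.5 times for the number of regions). The regions numbered 705 with lists trimmed to equal covered length, 289 with islands of at least their list's median reads, 60 with at least 50 reads in each wild type, 825 without WT CD8 H3K27me3 and 7797 with the WT CD8 H3K27ac list not used; the last 2 choices, and the bands of reads, were added after seeing the data. In the same order, the share with a DKO CD8 H3K27me3 island was 17.2%, 13.5%, 18.3%, 8.73% and 17.4%, against 21.5%. The share with a Tcf1 peak was 36.3% with islands of at least median reads, 23.3% with at least 50 reads, 13.8% without WT CD8 H3K27me3, 6.43% without the WT CD8 list, 6.69% for peaks of at least the median score, and 1.91%, 6.51%, 22.2% and 40.5% over the 4 bands, against 9.88%. The share of H3K9ac in both wild types without DKO CD8 was 100% for islands of at least median reads (13 of 13) and for at least 50 reads (6 of 6), and that of H3K4me3 was 87.5% for at least 50 reads (7 of 8). The share reaching the lowest DKO CD8 island was 49.1% on total island reads and 12.5% against the median island, versus 87.2%. The share of ratios of WT CD4 over WT CD8 below 0 was 87.3% and became 30.6% on total island reads, which turns the direction. Dropping islands under the median also drops DKO CD8 islands, so that 142 of those 289 regions held a weaker DKO CD8 island. A Tcf1 peak lay in 55 of these 142 and in 50 of the 147 without any DKO CD8 island. The causes of the changes were not tested. Weak islands limit the calls: a median of 22 WT CD8 reads leaves wide counting error.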

Other observations

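Per chromosome, the share of both-wild-type H3K27ac regions without a DKO CD8 island lay between 9.12% on chromosome 19 (33 of 362) and 15.0% on chromosome 12 (74 of 493), apart from chromosome Y, where both of the 2 regions lacked one. These are values of the rule that chose the regions. Chromosome 14 had 14.7% (65 of 442) and chromosome 16 had 14.2% (53 of 373). Chromosome X, at 9.52% (20 of 210), held the region with by far the most reads.

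Of the 1255 regions, 483 (38.5%) had an island of no histone library other than the 2 wild-type H3K27ac ones, and 2 had islands in 10 or more of the 12 libraries.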
